A study of Glycyrrhiza uralensis with 24 samples.

Results

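Roots and aerial parts of Glycyrrhiza uralensis seedlings kept in salt were compared with each other, with 9 root libraries set against 9 aerial libraries. These 18 libraries are the salt-treated ones among the 24 of the series, and they were chosen by their labels. The seedlings are labelled as 60 days old, were grown hydroponically for a week and then stood in a nutrient solution (MS) with 150 mM NaCl. Roots were taken after 2, 6 and 12 h, with 3 libraries at each time, and so were aerial parts, labelled as stems and leaves. A root and an aerial library that carry the same number in their titles were treated as a pair, which gives 3 pairs at each time. No plant without salt enters, so every value below is a difference between organs that share the salt, the medium and the age, and none is an effect of salt. The treatment text speaks of simulated drought as well as of NaCl, and the NaCl label was followed. The labels do not say how many plants make up a library, or whether the root and the aerial library of 1 number come from the same plants, so the spread behind each p-value is that between these 9 pairs and may be partly technical.

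G. uralensis is a licorice legume. Its roots take up water and mineral ions, meet the salt first and are the organ in which the sweet triterpenoid saponin glycyrrhizin and flavonoids such as liquiritin are known to accumulate. Its stems and leaves carry out photosynthesis, and salt reaches them with the water drawn up through the xylem. The expression tables give each gene as an ID and do not pair the IDs with names, so the genes of these pathways were not analysed here, the labelled organs could not be checked against the marker genes of leaf and root, and IDs are given without a function. Expression is in TPM, a share of a library's transcripts after correction for their length. In whole organs, fewer cells of a type and less RNA per cell cannot be told apart.

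The tables list 34445 IDs, of which 6133 stood at 0 in all 18 libraries. TPM values keep no record of depth, which is therefore unknown. The listed IDs summed to 412991 ± 11869 TPM in roots, against 446872 ± 12511 TPM in aerial parts (SD, n = 9 each), and the sum was lower in roots in 9 of 9 pairs (exact sign-flip permutation p = 0.00391, two-sided, the smallest that 9 pairs allow, and 0.0117 after adjustment over 6 library measures). The mean difference was -16923 TPM at 2 h, -43667 TPM at 6 h and -41054 TPM at 12 h. The 10 most abundant IDs held 9.59 ± 2.97% of the listed TPM in roots, against 13.7 ± 2.26% in aerial parts, and were also lower in roots in 9 of 9 pairs (exact permutation p = 0.00391, adjusted 0.0117). The 100 most abundant IDs held 25.2 ± 3.20% in roots, against 32.3 ± 3.34% in aerial parts (lower in roots in 8 of 9 pairs, exact permutation p = 0.00781, adjusted 0.0117). For the 1000 most abundant IDs the shares were 58.9 ± 2.31% in roots and 64.6 ± 2.35% in aerial parts (lower in roots in 8 of 9 pairs, exact permutation p = 0.00781, adjusted 0.0117). The listed TPM was thus more concentrated in few IDs in aerial parts than in roots. Roots had more IDs above 0, at 18645 ± 341 against 18359 ± 285 in aerial parts (higher in roots in 6 of 9 pairs, exact permutation p = 0.0352, adjusted 0.0422), a call that was lost when any 1 of pairs 1, 2, 4, 6, 7 or 8 was left out. IDs at 1 TPM or more numbered 12951 ± 230 in roots and 12585 ± 468 in aerial parts, which did not pass the test (higher in roots in 7 of 9 pairs, exact permutation p = 0.0898, adjusted 0.0898) unless pair 3 or pair 5 was left out (exact permutation adjusted p = 0.0391 and 0.0469). Within 1 time the 3 pairs cannot give a two-sided p below 0.25, so times were not tested apart for these measures.

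Pair 3, taken at 2 h, and pair 5, taken at 6 h, stood apart from the others. The root minus aerial differences of pair 5 correlated over the 16522 IDs tested with those of the other 8 pairs at a median Pearson r of 0.68, and those of pair 3 at 0.72, while the other pairs had medians of 0.76 to 0.79. The IDs called at least 2-fold higher in roots in the comparison below held 5.13% to 6.71% of the listed TPM in the other aerial libraries, but 9.87% in aerial library 3 and 8.26% in aerial library 5. The part that these libraries play in the results was not tested, and the counts without each of them are given where they move a result. Without pair 5 the count of IDs that differed between organs was 9273, and without pair 3 it was 9211, against 9224 with all pairs.

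**Figure D1:**
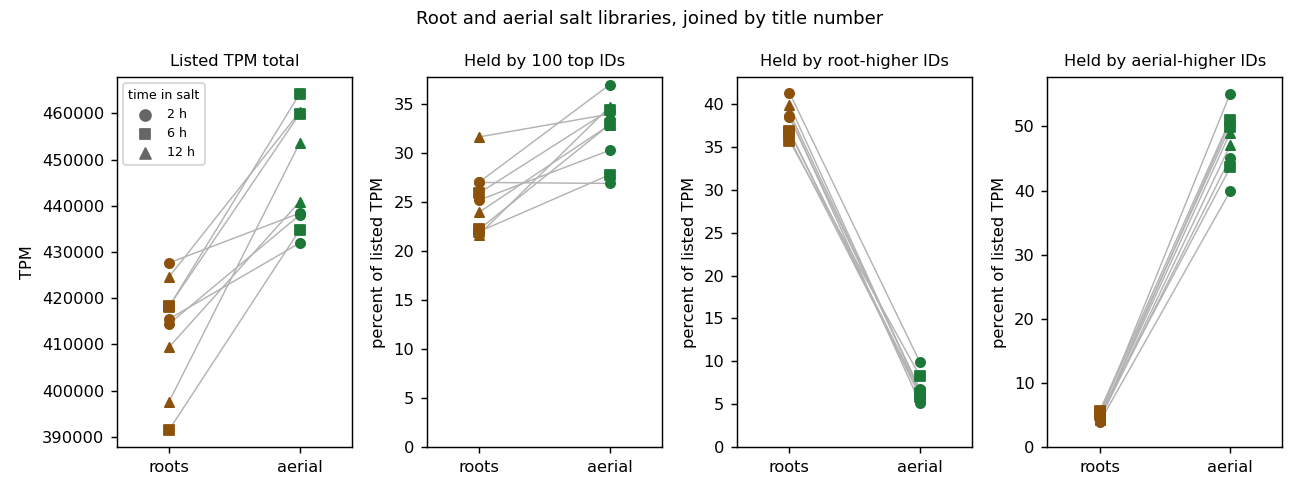
Each panel plots 1 measure per library for roots (brown, left) and aerial parts (green, right), with lines joining libraries of the same title number and symbols for the time in salt; the y axes are TPM in the first panel, which does not start at 0, and percent of the listed TPM in the others. The listed total is lower in roots in 9 of 9 pairs, and the last 2 panels show the shares held by IDs called at least 2-fold higher in roots or in aerial parts, whose choice fixes the direction.

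Over the 3 times together, 9224 of the 16522 IDs tested, 55.8%, differed between roots and aerial parts at an adjusted p under 0.05 in limma on log2(TPM + 1), with the pair as a block, and 8192 were called without the block. Of these, 5742, or 34.8% of those tested, were higher in roots, with a median difference of 0.99 on the log2 scale, and 3482, or 21.1%, were higher in aerial parts, with a median of -1.42. IDs that averaged 0.5 TPM or more across the 18 libraries were tested, and a positive difference means higher in roots. The median over all IDs tested was 0.22, on the side of roots. It was 0.29 after dividing each library by the sum of its listed IDs and 0.03 after median-of-ratios scaling, under which 4435 IDs were higher in roots and 4410 in aerial parts. The share of called IDs that were higher in roots was accordingly 62.3%, 66.7% and 50.1%, and the split between directions depends on the scaling. Median-of-ratios scaling divides each library by its median ratio to a common reference, over IDs above 0 in all 18 libraries. It thus draws the median difference towards 0 by construction, and a near-even split follows in part from that.

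The larger the difference, the more it lay on the aerial side. With a difference of at least 2-fold there were 5150 called IDs, 31.2% of those tested, and 2842 were higher in roots against 2308 in aerial parts, an order that turned with median-of-ratios scaling (2274 and 2630) and with a pseudocount of 5 (1460 and 1503). At 8-fold there were 390 higher in roots and 633 in aerial parts, at 16-fold 179 and 343, and at 64-fold 31 and 105. From 8-fold on, aerial parts had the larger number under both other scalings and with pseudocounts of 0.1 and 5. With limma's treat test against a minimum of 2-fold, 2825 IDs were called. The more abundant an ID, the more often it differed. At a mean of 0.5 to 1 TPM 26.9% of IDs were called, at 1 to 10 TPM 50.5%, at 10 to 100 TPM 69.8% and at 100 to 1000 TPM 82.3%. Of the 24 IDs at 1000 TPM or more, 21 were called, and 7 of them were at least 2-fold higher in roots and 13 in aerial parts.

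**Figure D2:**
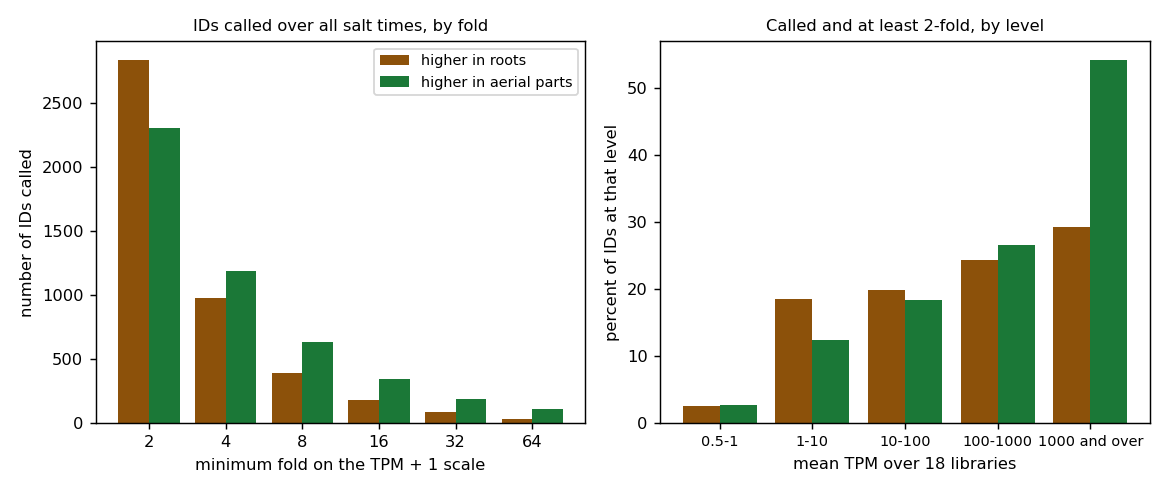
Left, the number of IDs called over all salt times that reach each minimum fold on the TPM + 1 scale (x axis), for those higher in roots (brown) and higher in aerial parts (green). Right, the percent of IDs at each mean TPM (x axis) that were called and at least 2-fold apart; at 2-fold roots have 2842 IDs against 2308 in aerial parts, an order that depends on the scaling, and at 64-fold 31 against 105.

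The share of the listed TPM held by the IDs at least 2-fold apart was also counted, the listed IDs themselves holding 39.1% to 42.8% of the TPM scale in roots and 43.2% to 46.4% in aerial parts. The 2842 IDs higher in roots held between 35.7% and 41.4% of the listed TPM in root libraries (median 38.5%), against 5.13% to 9.87% in aerial libraries (median 6.44%). The 2308 IDs higher in aerial parts held 3.84% to 5.57% in root libraries (median 4.44%), against 39.9% to 55.1% in aerial libraries (median 49.0%). These shares follow from how the IDs were chosen and are a description. Of the 100 most abundant IDs of roots, 63 were at least 2-fold higher in roots and 2 in aerial parts. Of the 100 most abundant IDs of aerial parts, 80 were at least 2-fold higher in aerial parts and 5 in roots. Over all 16522 IDs tested, 2842 were at least 2-fold higher in roots and 2308 in aerial parts. Picking IDs by abundance in 1 organ in itself favours that organ, so these counts are a description too. The 2 lists had 21 IDs in common, 21% of each.

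Among IDs above 0 in all 18 libraries and on 1 side in 9 of 9 pairs, the differences of 2 lay furthest towards roots. Both IDs were abundant there and had less than 10 TPM in every aerial library. Glyur001944s00035555 had a lowest, median and highest value of 199, 1159.9 and 9761 TPM in roots, against 0.15, 1.03 and 3.10 TPM in aerial parts (log2 difference 9.37, SE 0.55, limma adjusted p = 7.56e-07). It was higher in roots in 9 of 9 pairs, and its 9 root libraries spread over a far wider range than those of the next ID. Glyur004558s00045977 had 374, 1002 and 1319.7 TPM in roots, against 0.09, 1.48 and 9.83 TPM in aerial parts (8.24, SE 0.41, limma adjusted p = 2.69e-07, 9 of 9 pairs). For both IDs the lowest root library lay far above the highest aerial library, which the choice by size of the difference favours. Glyur009871s00047310, given below, had a difference of 8.25 but was listed at 0 in aerial library 1, so it was not ranked here.

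On the aerial side the strongest contrast under the same limits was that of the most abundant ID of that organ. Glyur000604s00024572 had 1.83, 4.56 and 16.3 TPM in roots (lowest, median and highest), against 7421, 15767 and 27419 TPM in aerial parts (log2 difference -11.11, SE 0.25, limma adjusted p = 1.62e-09, lower in roots in 9 of 9 pairs). Its lowest aerial value was that of pair 5. Glyur001994s00033877 had 0.39, 1.08 and 3.46 TPM in roots, against 1176, 2471 and 4456 TPM in aerial parts (-10.06, SE 0.20, limma adjusted p = 9.78e-10, 9 of 9 pairs). The organs did not overlap in either ID, which the same choice favours, and again pair 5 gave the lowest aerial value.

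The 2 most abundant IDs of roots had like levels in aerial parts. Glyur000651s00026839, which sums 2 rows of the tables, had 4455, 11569 and 20981 TPM in roots (lowest, median and highest) and 6365, 11419 and 17424 TPM in aerial parts, and was not called (log2 difference -0.01, SE 0.25, limma adjusted p = 0.972, higher in roots in 5 of 9 pairs). Glyur000183s00013015 had 424, 6128 and 12900 TPM in roots and 1234, 6029 and 12029 TPM in aerial parts (-0.18, SE 0.26, limma adjusted p = 0.574, higher in roots in 4 of 9 pairs). Pair 5 held the lowest value of this ID in both organs. The pair differences had a median SD of 0.52 at 2 h, 0.50 at 6 h and 0.38 at 12 h on the log2 scale. An ID that is level on average could thus miss a limit of 0.5 in some pair. In 380 of the 16522 IDs tested, the 9 pair differences all lay within 0.5 of 0. The most abundant of these was Glyur001230s00027569, with 508, 563 and 649.8 TPM in roots and 408, 497 and 755 TPM in aerial parts (0.14, SE 0.10, limma adjusted p = 0.264, higher in roots in 7 of 9 pairs). The next was Glyur000259s00016743, with 304, 429.7 and 631 TPM in roots and 343, 373 and 507 TPM in aerial parts (0.14, SE 0.10, limma adjusted p = 0.254, 7 of 9 pairs). Under scaling to the listed total Glyur000259s00016743 was called (limma adjusted p = 0.0487).

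A few IDs were read in 1 organ alone. In the strict sense, listed at 0 in all 9 libraries of an organ and at 1 TPM or more in all 9 of the other, there were 4 IDs of roots and 24 of aerial parts. A 0 in a TPM table may be a failed estimate, so no fold is given. Glyur000542s00017547 had 14.97, 49.1 and 69.6 TPM in roots (lowest, median and highest) and Glyur000076s00018587 had 3.48, 23.4 and 208 TPM, and both were listed at 0 in all aerial libraries. The other root IDs, given because the count is small and chosen after their values were seen, were Glyur000085s00008865, at 23.4 to 63.5 TPM, and Glyur000837s00027492, at 1.63 to 7.33 TPM. The 24 aerial IDs had mean levels of 2.78 to 96.8 TPM, and 12 of them averaged 10 TPM or more. The most abundant, Glyur000841s00026267, had 45.0, 99.5 and 201.9 TPM in aerial parts, and the next, Glyur001091s00033711, had 20.5, 52.2 and 104.4 TPM, and both were listed at 0 in all roots. The number of such root IDs was 11 without pair 5, 9 without pair 9, 8 without pair 3 and 7 without pair 2, while the number of aerial IDs stayed between 25 and 32 when any 1 pair was left out. A looser count, listed at 0 in all libraries of an organ and above 0 in at least 1 of the other, gave 2384 IDs seen in roots and 2075 in aerial parts.

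**Figure D3:**
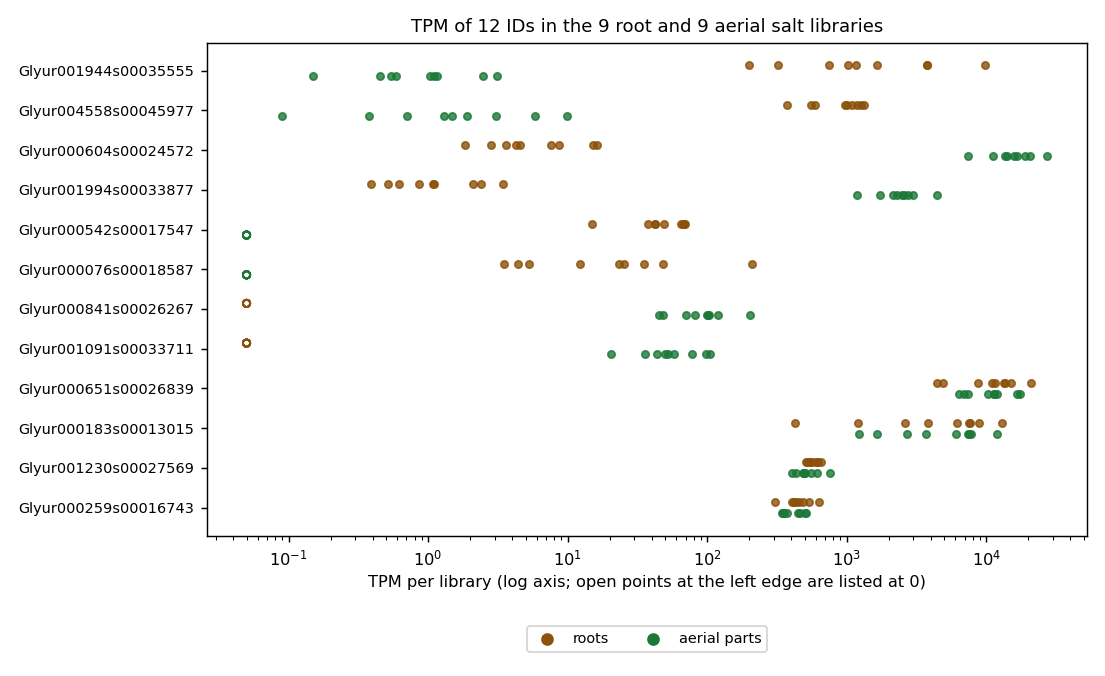
Each row is an ID and each point a library, with roots (brown) above aerial parts (green); the x axis is TPM on a log scale and open points mark libraries listed at 0. The first rows are the IDs furthest apart between organs among those above 0 in all 18 libraries, and IDs listed at 0 in 1 organ follow. The last rows are IDs at like levels in both, such as Glyur000651s00026839 at 4455 to 20981 TPM in roots and 6365 to 17424 TPM in aerial parts.

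The organs differed in about as many IDs at each time in salt. At 2 h, 5731 IDs were called, 34.7% of those tested, with 3302 (20%) higher in roots and 2429 (14.7%) in aerial parts. At 6 h there were 5619, or 34%, with 3260 (19.7%) higher in roots and 2359 (14.3%) in aerial parts. At 12 h there were 6273, or 38%, with 3622 (21.9%) higher in roots and 2651 (16%) in aerial parts. Those at least 2-fold apart made up 27.4% of the IDs tested at 2 h, 27.6% at 6 h and 30.2% at 12 h. The pair differences spread less at 12 h, with a median SD of 0.38 on the log2 scale against 0.52 at 2 h and 0.50 at 6 h. The count at 12 h was 4118 without pair 8, and at every time the higher share of roots turned with median-of-ratios scaling, which gave 45.8%, 48.4% and 47% higher in roots. That scaling draws the median difference towards 0 by construction. Of the 16522 IDs tested, 1854 were called higher in roots at each of the 3 times and 1626 higher in aerial parts at each, with no rescaling of the TPM.

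The times rest on different pairs, but the fit drew 1 spread per ID from all 9 pairs. An ID called at 1 time thus tends to have steady pairs at the others, so the shares that follow are a description and not a separate check. Of the 5731 IDs called at 2 h, 83.1% lay on the same side in all 3 pairs of 6 h and 86.4% in all 3 pairs of 12 h, against 50.2% and 56% of all IDs tested. Of those called at 6 h, 82.9% held their side in the 3 pairs of 2 h and 89.3% in those of 12 h, against 49.7% and 56.7% of all. Of those called at 12 h, 79.1% held it at 2 h and 82.4% at 6 h, against 49.5% and 50.8% of all. Between 1.09% and 2.25% lay on the other side in all 3 pairs. Across the IDs, which are not independent replicates, the organ differences of 2 h and 6 h correlated at r = 0.88, of 6 h and 12 h at 0.87 and of 2 h and 12 h at 0.85. In 688 IDs all 9 pairs were more than 2-fold higher in roots and in 1052 more than 2-fold higher in aerial parts. With a pseudocount of 5 these counts were 391 and 686. They were 961 and 1094 without pair 3, and 859 and 1133 without pair 5. Without any other single pair they were 695 to 721 and 1074 to 1091. Fewer pairs meet such a rule more easily.

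At each time only IDs above 0 in all libraries compared, and not already given, were ranked. Glyur009871s00047310, listed at 0 in aerial library 1, thus has no rank at 2 h, where its log2 difference was 9.60. The IDs furthest apart were in TPM as follows, and a gap between the organs is favoured by that choice. At 2 h, Glyur000066s00006242 had 478, 694 and 289 TPM in the 3 root libraries, against 0.06, 0.82 and 1.07 TPM in the aerial ones (log2 difference 8.18, SE 0.65, limma adjusted p = 1.8e-05). Glyur000841s00026269 had 770.1, 663 and 170.1 TPM in roots, against 0.26, 0.23 and 1.48 TPM in aerial parts (8.15, SE 0.92, limma adjusted p = 0.000171). In both, the lowest root library lay far above the highest aerial library. Glyur000137s00013337 had 0.29, 0.67 and 0.28 TPM in roots, against 2922, 1897 and 2446 TPM in aerial parts (-10.73, SE 0.41, limma adjusted p = 1.81e-07). Its aerial level was lower at the later times, averaging 1035 ± 648 TPM at 6 h and 735 ± 641 TPM at 12 h (SD, n = 3 each), though the change of its organ difference between 2 h and 12 h was not called (2.27, SE 0.58, limma adjusted p = 0.101). Glyur002595s00035357 had 1.00, 1.56 and 0.17 TPM in roots, against 4427, 2905 and 2060 TPM in aerial parts (-10.68, SE 0.40, limma adjusted p = 1.72e-07).

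At 6 h, Glyur009871s00047310 had 2788, 1903 and 1319 TPM in roots, against 19.0, 15.8 and 3.25 TPM in aerial parts (7.41, SE 0.86, limma adjusted p = 0.000205). Over all times it was the third most abundant ID of roots, and its highest aerial value, 129 TPM, stood in pair 9, whose root library was also its highest, at 8037 TPM. Glyur000374s00017954 had 2580.03, 2887 and 2069 TPM in roots at 6 h, against 7.99, 13.2 and 23.8 TPM in aerial parts (7.40, SE 0.37, limma adjusted p = 1.11e-06). Glyur000472s00019569 had 0.83, 2.4 and 5.4 TPM in roots, against 5717, 6302 and 4240.3 TPM in aerial parts (-10.61, SE 0.49, limma adjusted p = 6.57e-07). Glyur002722s00044429 had 1.61, 0.53 and 9.27 TPM in roots, against 3727, 7953 and 2996 TPM in aerial parts (-10.34, SE 0.68, limma adjusted p = 6.5e-06). The organs did not overlap in any of these, which their choice as the furthest apart favours.

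At 12 h, Glyur002959s00043117 had 876, 421 and 418 TPM in roots, against 1.80, 1.05 and 7.50 TPM in aerial parts (7.20, SE 0.59, limma adjusted p = 1.96e-05), and Glyur000321s00019417 had 341, 236 and 515 TPM in roots, against 0.67, 0.39 and 6.67 TPM in aerial parts (7.05, SE 0.52, limma adjusted p = 1.07e-05). Glyur000422s00020645 had 1.99, 0.40 and 0.23 TPM in roots, against 1837, 1740.4 and 1859.7 TPM in aerial parts (-10.04, SE 0.28, limma adjusted p = 5.06e-08). The widest contrast given at 12 h was one that 2 h did not show. Glyur000380s00017141 had 0.74, 6.42 and 0.93 TPM in roots, against 5.11, 8.05 and 1.75 TPM in aerial parts at 2 h, which was not called (-0.87, SE 0.60, limma adjusted p = 0.300). At 6 h it had 4.92, 11.4 and 5 TPM in roots, against 2892, 1871 and 1725 TPM in aerial parts, and at 12 h 10.9, 0.33 and 3.06 TPM, against 8656, 11669 and 12073 TPM (-11.38, SE 0.60, limma adjusted p = 1.31e-06). The change of its organ difference between 2 h and 12 h was -10.51 (SE 0.85, limma adjusted p = 0.00103), and its root level was at most 11.4 TPM in all 9 libraries.

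Few IDs were called for a change of their organ difference with time in salt. From 2 h to 6 h a change was called in 5 IDs, 0.0303% of those tested, with 1 (0.00605%) moving towards roots and 4 (0.0242%) towards aerial parts. From 6 h to 12 h it was called in 46, 0.278%, with 24 (0.145%) towards roots and 22 (0.133%) towards aerial parts. From 2 h to 12 h it was called in 264, 1.6%, with 138 (0.835%) towards roots and 126 (0.763%) towards aerial parts. At an unadjusted limma p under 0.05 there were 1758, 1939 and 2303 of the 16522 IDs. A share of 0.05 of the IDs would pass that limit with no change at all. Each time has 3 pairs, so an ID that was not called may still have changed. A test of any change over the 3 times called 197 IDs, 1.19%. These counts depend on how the pairs enter the fit. With the pair as a random effect they were 120, 186, 537 and 505, and without the pairing 21, 54, 238 and 198. They also rest on single pairs: the count of 264 was 136, 140, 96 and 112 without pairs 2, 7, 8 and 9, and the count of 197 was 67, 110, 62, 29 and 82 without pairs 2, 4, 7, 8 and 9. The count of 46 fell to between 4 and 26 without any 1 of pairs 2, 4, 5, 6, 7, 8 or 9, with the lowest without pair 8. The count of 5 was 2, 1, 1, 3, 2 and 3 without pairs 2, 3, 4, 5, 6 and 9. No library without salt at 2, 6 or 12 h enters, so hours in salt and hour of the day cannot be told apart.

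Where a change of the organ difference was called, it was the aerial level that moved more in most IDs. Among the 264 IDs called from 2 h to 12 h, the aerial change was the larger in 248, or 93.9%, while this held for 62.4% of all IDs tested. Of these 248, 115 rose and 133 fell in aerial parts, and of the 16 in which the root change was larger, 5 rose and 11 fell in roots. The median size of the change among the 264 was 0.27 on the log2 scale in roots and 2.45 in aerial parts, against 0.27 and 0.42 over all IDs tested. From 6 h to 12 h the aerial change was the larger in 38 of 46 IDs, or 82.6%, against 50.8% of all IDs tested. From 2 h to 6 h it was the larger in 5 of 5, against 49.8% of all. Whether the organs differ in the number of IDs that move was not tested in itself.

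**Figure D4:**
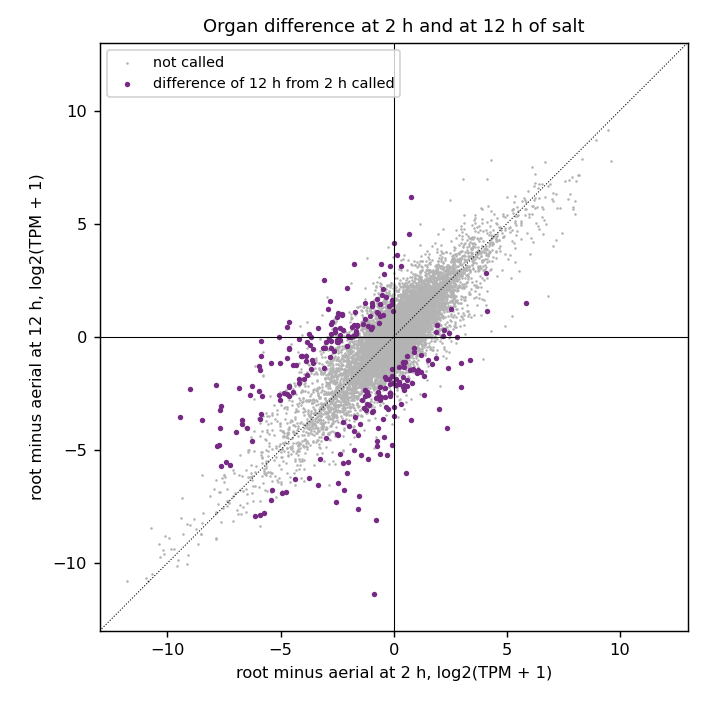
Each point is an ID, with its root minus aerial difference on the log2(TPM + 1) scale at 2 h (x axis) and at 12 h (y axis); the dotted line marks equal differences. Most IDs lie along the line (r = 0.85), and the 264 IDs in purple, whose difference changed at an adjusted p under 0.05, lie away from it on both sides.

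In several IDs the aerial excess shrank over the hours in salt, though each of the 4 given here was still called higher in aerial parts at 12 h, in 3 of 3 pairs. Glyur000166s00010574 had 2109, 3194 and 1518 TPM in aerial parts at 2 h, 236, 215 and 274 TPM at 6 h and 15.7, 23.4 and 30.0 TPM at 12 h, while its root level stayed between 2.27 and 4.17 TPM in all 9 libraries. The change of its organ difference was 2.96 from 2 h to 6 h (SE 0.32, limma adjusted p = 0.0305) and 6.67 from 2 h to 12 h (SE 0.32, limma adjusted p = 8.93e-05). The first of these calls was lost without any 1 of pairs 1, 2, 3, 4, 5, 6 or 8, with limma adjusted p of 0.0602 to 0.153, and with a pseudocount of 0.1 (0.0502), no filter (0.0658) or no trend (0.0511). Glyur001030s00028210 had root levels of 0.17 to 1.26 TPM, and aerial levels of 831, 958 and 1240.5 TPM at 2 h, 473, 407 and 633 TPM at 6 h and 15.5, 12.8 and 25.9 TPM at 12 h (change from 6 h to 12 h 5.11, SE 0.42, limma adjusted p = 0.00495). Glyur000279s00013259 stood at 4.15 to 8.34 TPM in roots, and in aerial parts at 298, 260.1 and 173 TPM at 2 h, 96.5, 107 and 97.0 TPM at 6 h, and at 15.2, 10.1 and 11.8 TPM at 12 h (change from 6 h to 12 h 2.95, SE 0.22, limma adjusted p = 0.00437). Glyur001354s00030737 was between 0 and 0.29 TPM in roots, against 381, 508 and 334 TPM in aerial parts at 2 h and 16.8, 9.46 and 14.8 TPM at 12 h (change from 2 h to 12 h 4.80, SE 0.36, limma adjusted p = 0.000903).

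In others the aerial excess was larger at the later time. In Glyur000327s00026468 and Glyur000119s00012196, given below, it was already called at 2 h (log2 differences of -1.57 and -2.01, limma adjusted p = 0.000343 and 0.000631), and in Glyur006602s00046711 and Glyur000472s00019578 there was no called difference at 2 h (limma adjusted p = 0.220 and 0.283). Glyur006602s00046711 stood at 0 to 0.41 TPM in roots, and in aerial parts at 3.97, 0 and 0.35 TPM at 2 h, 403, 199 and 355 TPM at 6 h and 253, 384 and 319 TPM at 12 h (change from 2 h to 6 h -7.28, SE 0.64, limma adjusted p = 0.00952). Without pairs 3, 4 or 6 its limma adjusted p was 0.0602, 0.0851 and 0.0641, and with a pseudocount of 0.1 it was 0.141. Glyur000327s00026468, the 1 ID of the 5 called from 2 h to 6 h that is not otherwise given and chosen after its values were seen, had 42.6 to 77.9 TPM in roots, against 164, 139.8 and 143 TPM in aerial parts at 2 h and 1649, 654 and 1488 TPM at 6 h (change -2.59, SE 0.28, limma adjusted p = 0.0305). Glyur000119s00012196 had 1.80 to 9.36 TPM in roots, against 29.2, 22.0 and 26.2 TPM in aerial parts at 6 h and 151, 208 and 237 TPM at 12 h (change -3.77, SE 0.40, limma adjusted p = 0.0119), and its limma adjusted p was 0.0526, 0.0614 and 0.0800 without pairs 5, 7 and 8. Glyur000472s00019578 had 2.71 to 14.4 TPM in roots, against 5.89, 3.51 and 3.95 TPM in aerial parts at 2 h and 357, 429 and 436 TPM at 12 h (change -6.57, SE 0.52, limma adjusted p = 0.000967).

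Glyur000785s00024157 was at or near 0 in both organs at 2 h and was higher in both at 6 h, after which the root level was lower again at 12 h and the aerial level higher. Its roots were listed at 0 in all 3 libraries at 2 h and had 23.4, 11.0 and 14.1 TPM at 6 h and 7.96, 3.57 and 3.8 TPM at 12 h. Its aerial parts had 0.80, 0 and 0 TPM at 2 h, 116, 85.6 and 79.2 TPM at 6 h and 212, 249 and 196 TPM at 12 h. The change of its organ difference from 2 h to 12 h was -4.95 (SE 0.39, limma adjusted p = 0.000967), which a pseudocount of 0.1 took past the threshold (limma adjusted p = 0.054).

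**Figure D5:**
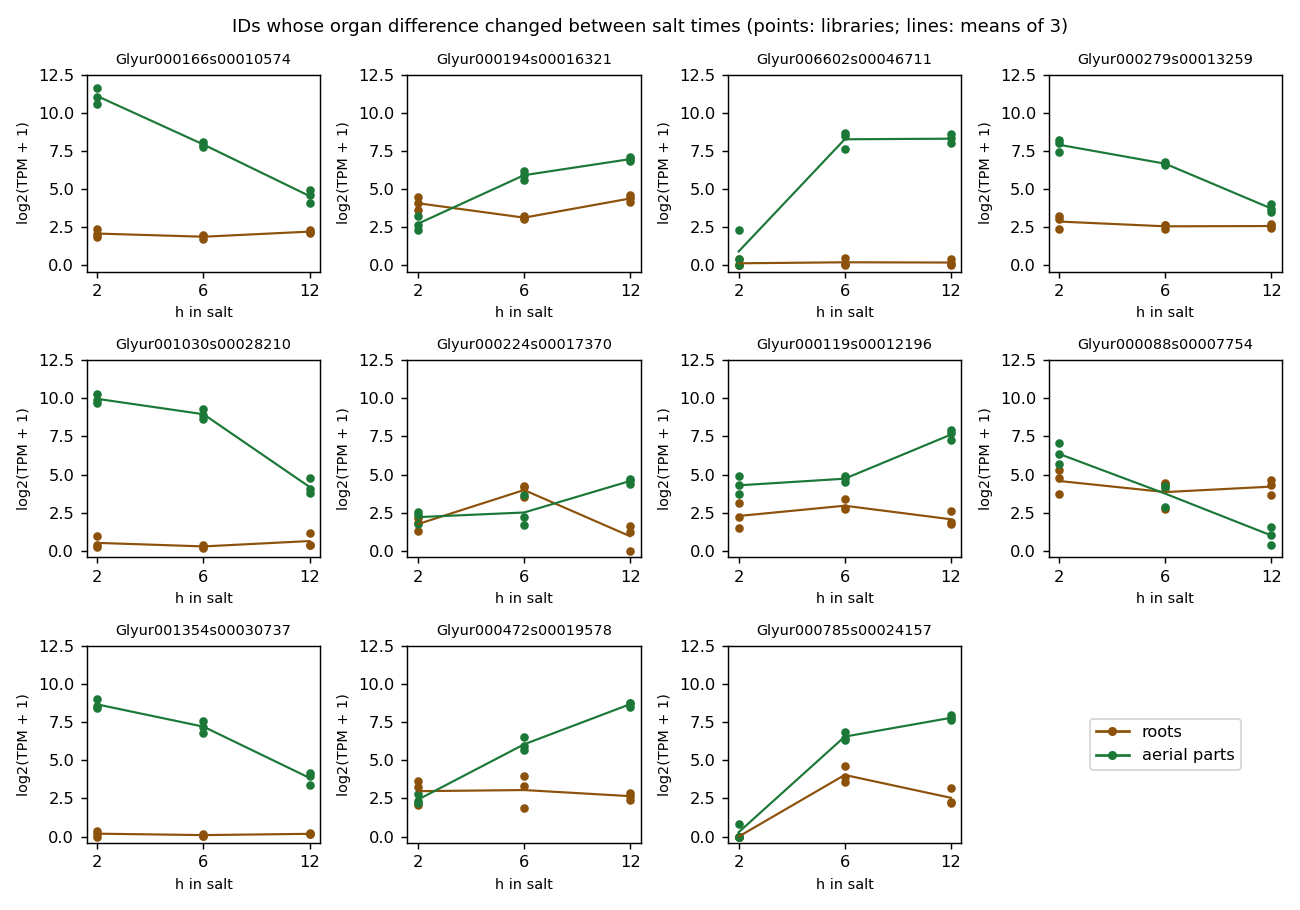
For 11 IDs whose organ difference changed between salt times, the level as log2(TPM + 1) is plotted against hours in salt for roots (brown) and aerial parts (green), with a point for each library and lines through the means of 3. The aerial line moves most in nearly every panel, as in Glyur001030s00028210, whose roots stay at 0.17 to 1.26 TPM, and Glyur000224s00017370 shows a root line that is highest at 6 h.

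An organ difference turned to the other side in 47 of the 16522 IDs tested. Of these, 16 went from a root excess at 2 h to an aerial excess later and 21 from an aerial excess at 2 h to a root excess later. Turning means a mean of more than 1 on the log2 scale at one time and less than -1 at another, with all 3 pairs of each time on that side. Of the 47, 24 were also called by the test of any change over the 3 times, against 1.19% of all IDs tested. Choosing IDs by a turn in the same pairs favours that call, so the count is a description. The number was 123 with a pseudocount of 0.1 and 13 with a pseudocount of 5, and 98, 75, 71 and 83 without pairs 1, 3, 6 and 7, where a time with 2 pairs meets the rule more easily. In Glyur000194s00016321, roots had 16.3, 21.3 and 11.3 TPM at 2 h, against 4.08, 8.33 and 5.22 TPM in aerial parts (1.34, SE 0.20, limma adjusted p = 0.00096). At 6 h its roots had 7.35, 8.51 and 7.45 TPM, against 58.5, 48.2 and 73.3 TPM in aerial parts, and at 12 h 20.5, 23.2 and 16.5 TPM, against 123, 134 and 114.7 TPM (-2.58, SE 0.20, limma adjusted p = 1.6e-05). Its change from 2 h to 6 h was -4.12 (SE 0.29, limma adjusted p = 0.00269).

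Glyur000088s00007754 turned the other way. At 2 h its roots had 26.1, 12.2 and 37.7 TPM, against 79.2, 50.3 and 132 TPM in aerial parts (-1.77, SE 0.25, limma adjusted p = 0.000564). At 6 h the organs overlapped, with 5.77, 19.6 and 20.9 TPM in roots and 6.43, 16.5 and 17.8 TPM in aerial parts, and at 12 h roots had 19.3, 23.7 and 11.8 TPM, against 0.32, 2.02 and 1.07 TPM in aerial parts (3.20, SE 0.25, limma adjusted p = 1.34e-05). Its root levels at 2 h and 12 h overlapped. In Glyur000224s00017370 the root level was highest at 6 h. It had 3.40, 1.45 and 2.64 TPM in roots, against 4.83, 2.42 and 4.06 TPM in aerial parts at 2 h, then 17.2, 18.4 and 10.4 TPM against 2.30, 11.5 and 3.59 TPM at 6 h, and 2.17, 1.35 and 0 TPM against 24.2, 25.3 and 19.9 TPM at 12 h (change from 6 h to 12 h -5.09, SE 0.52, limma adjusted p = 0.0119). That call was lost when pair 8 was left out (limma adjusted p = 0.0800) or the pseudocount was 0.1 (0.072).

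Of the IDs, 2751 have several rows in the tables, which do not say what a row stands for, and the rows of an ID were summed above. Taken apart, 584 of these IDs had at least 2 rows with a mean of 1 TPM or more, and in 5 of them 1 row was higher in roots and another in aerial parts in 9 of 9 pairs. In 2 of these, described after their values were seen, every pair differed more than 2-fold in each direction. The first row of Glyur000008s00001274 had 3.28, 16.5 and 64.8 TPM in roots (lowest, median and highest), against 146, 421 and 694 TPM in aerial parts. Its second row had 2.03, 26.3 and 60.4 TPM in roots and was listed at 0 in all 9 aerial libraries. In Glyur000026s00001866, which has 6 rows, the fifth had 10.2, 31.1 and 344 TPM in roots, against 0.05, 0.33 and 0.79 TPM in aerial parts, and the sixth had 0.66, 1.27 and 10.3 TPM in roots, against 6.12, 18.5 and 56.5 TPM in aerial parts.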

How the data were processed

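The authors deposited 1 table per library with an ID and a TPM value, the unit per the file headers. Among the tools listed, per the submitters' processing notes, are RSEM, StringTie, HISAT2 and fastp. The sources used here give neither their versions nor the genome or annotation. The listed IDs held 39.1% to 46.4% of the TPM scale, so the scaling took in transcripts that are not listed. Rows of 1 ID were summed. Log2(TPM + 1) of IDs averaging 0.5 TPM or more across the 18 salt libraries was fitted in R 4.3.3 by limma 3.58.1, using a mean-variance trend and the pair as a fixed block, and Benjamini-Hochberg adjusted p-values under 0.05, two-sided, were called. The pseudocount shrinks differences of IDs at low TPM. Library measures were tested by exact sign flips in Python 3.11.15 with scipy 1.17.1. The pipeline was tested on simulated data. Pairing comes from the shared title numbers. The residuals of the 2 libraries of a number correlated over IDs at 0.20 to 0.57, and those with the other aerial libraries of the same time at -0.43 to 0.13. Residuals of an organ and time sum to 0, so a positive value within a number lowers the others by construction. The members, rules and alternatives were chosen with earlier results of these data known. Named IDs are, in each direction, the 2 furthest apart at 10 TPM or more over all times and at each time (not yet named, above 0 in the libraries compared), the 2 of lowest p for each change between times, the 2 most abundant listed at 0 in the other organ, the 2 most abundant in each organ, the 2 turning IDs of lowest p and the 2 most abundant level IDs. From 2 h to 6 h the rule gave 1 positive ID. No gene list by symbol was analysed here, since the IDs carry no names. Alternatives were the pseudocount, the filter, 2 scalings, the block, the trend, a 2-fold minimum, IDs with 1 row and each pair left out in turn.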

Additional observations from a re-analysis of the deposited data

Results flagged for a closer look

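In the IDs given here the root minus aerial difference itself differed between salt times by a test of that difference, and each value is a change on the log2 scale. From 2 h to 6 h it was 2.96 in Glyur000166s00010574, -4.12 in Glyur000194s00016321 and -7.28 in Glyur006602s00046711. From 6 h to 12 h it was 2.95 in Glyur000279s00013259, 5.11 in Glyur001030s00028210, -5.09 in Glyur000224s00017370 and -3.77 in Glyur000119s00012196. From 2 h to 12 h it was 4.97 in Glyur000088s00007754, 4.80 in Glyur001354s00030737, -6.57 in Glyur000472s00019578, -4.95 in Glyur000785s00024157 and -3.92 in Glyur000194s00016321. The number of IDs called for such a change was 5 from 2 h to 6 h, 46 from 6 h to 12 h, 264 from 2 h to 12 h and 197 over the 3 times.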

How the results depend on the processing

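No called value of a named ID or of a library measure was called on the other side under the alternatives, while values near 0 that were not called have no firm sign. Named IDs were mostly chosen for large or clear differences, and this does not cover every called ID. The order of the root and aerial counts turned with median-of-ratios scaling at 2-fold over all times (and with a pseudocount of 5). With that scaling it also turned for all IDs called at 2 h (2490 and 2951), 6 h (2672 and 2845) and 12 h (2808 and 3168). The scaling itself draws the median difference towards 0. Of 738 values for named IDs, 717 kept their result, called or not called, and 20 lost the call, all 20 among changes between times. Over all times the count of 9224 IDs was 8408 to 9273 with 1 pair left out, and 2825 against a 2-fold minimum. The 5150 IDs at least 2-fold apart numbered 4995 to 5339 with 1 pair left out and 2963 with a pseudocount of 5, which also gave 391 and 686 IDs more than 2-fold apart in every pair (695 to 961 and 1074 to 1133 with 1 pair left out). With 1 pair left out the counts were 4015 to 6019 at 2 h, 3791 to 5901 at 6 h and 4118 to 6629 at 12 h. Changes between times depended most on the settings. The count of 5 from 2 h to 6 h was 3 with a pseudocount of 0.1, 27 with one of 5, 3 with no filter, 10 at a mean of at least 1 TPM, 22 with median-of-ratios scaling, 2 with no trend, 21 with no replicate block and 120 with the block as a random effect (1 to 5 with 1 pair left out). The count of 46 from 6 h to 12 h was 7 and 80 with these pseudocounts, 15 with no filter and 186 with the random block (4 to 61). The count of 264 from 2 h to 12 h was 150 with a pseudocount of 0.1, 164 with no filter and 537 with the random block (96 to 321). The count of 197 over the 3 times was 58 and 330 with these pseudocounts, 112 with no filter and 505 with the random block (29 to 187). The within-pair correlation behind the random block was 0.31. Without the pairing the 4 counts over all times and at 2, 6 and 12 h were 8192, 4856, 4850 and 5331, and the call for IDs above 0 was lost (mean difference 285.9, exact permutation adjusted p = 0.0711). The 47 turning IDs numbered 123 and 13 with these pseudocounts (50 to 98 with 1 pair left out). IDs listed at 0 in 1 organ numbered 4 to 11 in roots and 25 to 32 in aerial parts with 1 pair left out. In the same way the root minus aerial difference in IDs above 0 was 234 to 336 and lost its call for most pairs, that in IDs at 1 TPM or more was 271 to 482.5 and passed without pair 3 (exact permutation adjusted p = 0.0391) or pair 5 (0.0469), and the listed total differed by -36773 to -31117 TPM. The cause of these shifts was not tested. Depth is unknown, so which low values can be told from 0 is unknown too.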

Other observations

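The side of the organ difference was counted for IDs that stand near each other in the sorted list and share the part of the ID before the letter s, whose meaning the tables do not give. Where both IDs were called and at least 2-fold apart between organs, 560 of 867 ID pairs 1 place apart, 64.6%, were on the same side. It was 57.1% of 743 at 2 places apart, 51.1% of 601 at 5 places, 52.4% of 450 at 10 places and 47.4% of 268 at 20 places. Glyur000841s00026267, listed at 0 in all roots, and Glyur000841s00026269, among the IDs furthest towards roots at 2 h, share that part of the ID and lay on opposite sides. These shares were counted after the data were seen and have no test.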
